A study of Homo sapiens with 18 samples.

Results

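The response of HepG2 cells to the phospholipid DLPC was set against their response to the small molecule 6N-10CA, gene by gene, as a difference of log2 fold changes: DLPC over its vehicle ethanol, minus 6N-10CA over its vehicle DMSO. HepG2 is a human liver cell line derived from a hepatoblastoma. The measurement used 12 of the 18 libraries of the series, and all 14797 genes that passed a filter on low counts were tested. The groups were HepG2 cells given DLPC (dilauroylphosphatidylcholine) at 100 µM, ethanol at 0.1%, 6N-10CA at 10 µM and DMSO at 0.1%, with 3 libraries in each. All of these cells were kept in medium with 10% serum, charcoal-stripped for the treatments. 6N-10CA is treated here as the hybrid of the series' other small molecules, 6N and 10CA. The doses of DLPC and 6N-10CA differ, and the length of treatment is not given in the sources used here. A difference of responses is therefore a difference between the treatments as given, not between the compounds at a matched dose. The labels do not say which vehicle goes with which compound, and the pairing used here comes from knowledge of the study.

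LRH-1, encoded by NR5A2, is a nuclear receptor of liver, intestine, pancreas and ovary that binds phospholipids in its ligand pocket. In liver it is known for controlling genes of bile acid synthesis, of cholesterol transport and of glucose handling, and for restraining the acute phase response. DLPC is a phosphatidylcholine with medium-length acyl chains that binds LRH-1 and activates it, and the series compares it with synthetic ligands of the same receptor. NR5A2 (GRCh38 chromosome 1, 200027602 to 200177424) was read at 4.39, 3.60 and 4.03 CPM (counts scaled so that libraries of different depth share 1 total) with DLPC, at 3.31, 3.38 and 5.17 CPM with ethanol, at 3.25, 4.43 and 4.39 CPM with 6N-10CA and at 3.97, 3.11 and 4.48 CPM with DMSO. The 4 groups overlapped, and the difference of responses was -0.03 on the log2 scale (95% interval -0.52 to 0.47).

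Library totals ran from 28135967 to 34992442 counts over the series, so that 3 counts correspond to 0.086 to 0.107 CPM. The labelled cell type was checked on 14 genes of hepatocyte-derived cells. All 14 were present in the 4 groups, and their summed level ran from 69020 to 74880 CPM with DLPC, 64810 to 72070 CPM with ethanol, 67890 to 73850 CPM with 6N-10CA and 66880 to 70160 CPM with DMSO. Of 21 markers of stromal, endothelial and blood cells, 3 had no count in any library and 12 stayed under 1 CPM. Their summed level was 485.3 to 558 CPM with DLPC, 464 to 511.8 CPM with ethanol, 410.7 to 412.9 CPM with 6N-10CA and 438.4 to 459.5 CPM with DMSO. LYZ (lysozyme) and CD68 (a lysosomal membrane protein of macrophages), which carry most of that sum, were both higher in the difference of responses, at 0.26 and 0.30 on the log2 scale. The call of LYZ was lost in 8 of 12 fits with a library left out and in the fit of the 12 libraries alone, and that of CD68 in 5; their part in the results below was not tested.

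The responses differed beyond the replicate error for 216 genes (1.46% of those tested), at a Benjamini-Hochberg adjusted p under 0.05 in edgeR's two-sided quasi-likelihood test with the replicate number as a block. The DLPC response was the higher in 136 of them (0.919%) and the lower in 80 (0.541%). Every one of the 216 had the same sign in each of the 3 replicate numbers. The test that selected them used the same libraries and favours such genes, so this is a description and no separate check. Each response alone called more genes: 997 for DLPC against ethanol (6.74%; 533 or 3.6% higher, 464 or 3.14% lower) and 562 for 6N-10CA against DMSO (3.8%; 249 or 1.68% higher, 313 or 2.12% lower). Of the 136 genes with a higher DLPC response, 88 had risen with DLPC alone, 24 had fallen with 6N-10CA alone and 14 had moved in opposite directions. Of the 80 with a lower DLPC response, 42 had fallen with DLPC alone, 20 had risen with 6N-10CA alone, 4 had moved in opposite directions and 9 had moved in the same direction by different amounts. Here "alone" means that the other response was not called, which does not show that it was absent. The differences were small in size: 7 genes with a higher DLPC response and 1 with a lower one passed 2-fold. Libraries with the same number deviated together, and the block takes that shared part out of the error; without it 10 genes were called (9 higher, 1 lower), all of them among the 216.

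**Figure D1:**
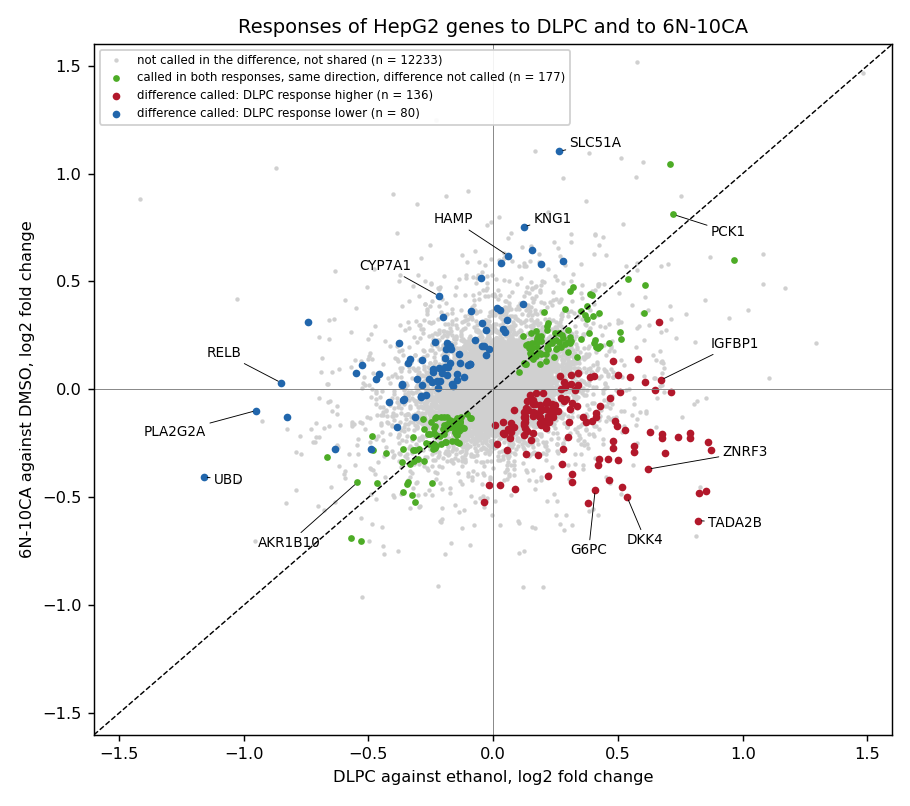
Log2 fold change of each gene with DLPC against ethanol (horizontal axis) and with 6N-10CA against DMSO (vertical axis), for the 12626 genes whose mean over the 12 libraries reached 1 CPM, 6 of which lie beyond the axes. Red and blue points are the 136 and 80 genes called higher and lower in the difference of responses, green points are genes called in both responses in the same direction and not in the difference, and the dashed line marks equal responses; UBD and RELB lie far to the left of it, SLC51A and KNG1 far above it and G6PC below it.

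Of the genes of inflammatory signalling examined, 11 fell with DLPC, and for 4 of them the DLPC response was lower than the 6N-10CA response. NF-kB, a family of transcription factors that includes RELB, drives genes of inflammation, and liver cells answer such signals with acute phase proteins. Of 22 tested members of the NF-kB and inflammation list, 0 were higher and 4 were lower in the difference of responses, namely UBD, RELB, ICAM1 and IL32. In the separate responses, 11 members fell with DLPC and 1 with 6N-10CA, and none rose in either. Ethanol against DMSO was itself called higher for 1 of the 22 and lower for 0 (0.122% of all genes tested), with a list median of 0.06. DLPC against 6N-10CA directly, with the vehicles left out, called 0 members higher and 6 lower (7.8% of all genes tested in either direction). The median difference over the list was -0.17, against 0.001 over all genes tested (log2 scale). UBD and IL32 are shown by the 250 bases before their RefSeq transcription start (GRCh38.p14, read on the gene's strand, at chr6:29559733-29559982 on the minus strand and chr16:3065153-3065402 on the plus strand), because both carry a match to the consensus NF-kB motif. Capitals mark that motif in UBD. In IL32 they mark first a pair of matches to the LRH-1 motif CAAGGNCA, on opposite strands, and then overlapping NF-kB matches on both strands.
UBD: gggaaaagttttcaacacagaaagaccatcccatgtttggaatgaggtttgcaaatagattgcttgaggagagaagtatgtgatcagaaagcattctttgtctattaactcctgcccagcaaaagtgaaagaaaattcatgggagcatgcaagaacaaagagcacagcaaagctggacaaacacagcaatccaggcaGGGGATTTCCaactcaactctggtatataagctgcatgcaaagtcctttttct
IL32: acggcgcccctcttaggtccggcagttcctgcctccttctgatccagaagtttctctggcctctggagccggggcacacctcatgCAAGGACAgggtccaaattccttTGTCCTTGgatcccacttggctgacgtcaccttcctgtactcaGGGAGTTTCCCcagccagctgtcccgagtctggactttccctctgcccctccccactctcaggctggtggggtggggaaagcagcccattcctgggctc

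The NF-kB motif, searched by its consensus on both strands, was in 57.9% of the 19 promoters matched to that list, against 11.7% of the promoters of all tested genes. It was in 7 of the 60 matched promoters of genes with a lower DLPC response (11.7%) and in 8 of the 102 of genes with a higher one (7.84%), so over the called genes as a whole its share was at or below that of all tested genes. The LRH-1 motif was in 5 of those 60 promoters (8.33%) and in 1 of those 102 (0.98%), against 3.33% of all tested genes. A match is a description of these letters and does not show that a factor binds there.

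UBD, which encodes the ubiquitin-like protein FAT10 (chromosome 6, 29555515 to 29559925), had the smallest adjusted p of the difference. Its level was 15.9, 18.7 and 15.6 CPM with DLPC, against 34.5, 39.2 and 38.2 CPM with ethanol. It was 26.2, 29.1 and 25.4 CPM with 6N-10CA, against 32.7, 41.0 and 33.4 CPM with DMSO. Neither pair of groups overlapped, and all DLPC libraries were also below all 6N-10CA libraries. UBD thus fell in both responses, by 1.16 with DLPC and by 0.41 with 6N-10CA on the log2 scale (SE 0.06 each), and the difference of responses was -0.75 (SE 0.08, adjusted p = 0.0001018). UBD shares 836 exonic bases with OR2I1P on the opposite strand, a gene that averaged 1.23 CPM over the 12 libraries.

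RELB, the NF-kB subunit of the non-canonical pathway (chromosome 19, 45001430 to 45038198), was read at 4.10, 3.53 and 4.03 CPM with DLPC, against 7, 7.12 and 6.90 CPM with ethanol. With 6N-10CA it was read at 6.22, 6.07 and 5.25 CPM, against 5.39, 6.92 and 4.91 CPM with DMSO. The DLPC libraries were below all others, whereas the 6N-10CA and DMSO libraries overlapped. The DLPC response was -0.85 (SE 0.13), the 6N-10CA response 0.03 (SE 0.12) and the difference -0.88 (SE 0.18, adjusted p = 0.01042).

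ICAM1, an adhesion molecule that leukocytes bind (chromosome 19, 10270835 to 10286615), averaged 83.9 ± 5.11 CPM with DLPC, against 107 ± 1.09 CPM with ethanol (mean ± SD, n = 3 each, as in all such values below). It averaged 98.0 ± 3.34 CPM with 6N-10CA, against 101 ± 2.48 CPM with DMSO, and the difference of responses was -0.31 (SE 0.06, adjusted p = 0.005997). IL32, a cytokine (chromosome 16, 3065297 to 3082192), was read at 198, 188 and 187 CPM with DLPC, against 233, 237 and 229 CPM with ethanol. With 6N-10CA the level was 237, 221 and 223 CPM, against 237, 217 and 218 CPM with DMSO. The DLPC and ethanol libraries were separate, the 6N-10CA and DMSO libraries overlapped, and the difference was -0.30 (SE 0.06, adjusted p = 0.007882).

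Some acute phase proteins, which liver secretes in inflammation, were called in the same direction: of 21 tested members, 0 were higher and 5 lower in the difference of responses. They were HAMP at -0.56, SERPINA3 at -0.36, ORM1 at -0.24, ITIH3 at -0.24 and HP at -0.21. The separate responses did not move the list one way, with 3 members higher and 3 lower with DLPC and 6 higher and 1 lower with 6N-10CA. Ethanol against DMSO was itself called for 3 of the 21 (0.122% of all genes tested), FGA, FGG and CP, none of which is among the 5. The call of ITIH3 was lost in 9 of 12 fits with a library left out. SERPINA3, the protease inhibitor antichymotrypsin (chromosome 14, 94612377 to 94624055), was read at 228, 222 and 219.9 CPM with DLPC, against 303, 297 and 294 CPM with ethanol. Its level with 6N-10CA was 326, 271 and 273 CPM, against 310.1, 302 and 291 CPM with DMSO, so that its difference came with a fall under DLPC (-0.42, SE 0.04) and overlapping libraries under 6N-10CA (-0.06, SE 0.04). ORM1, the acid glycoprotein orosomucoid, differed the other way round: it averaged 457 ± 3.11 CPM with DLPC, against 469 ± 9.10 CPM with ethanol, and 519 ± 14.7 CPM with 6N-10CA, against 452 ± 6.35 CPM with DMSO. Haptoglobin, HP, fell in both responses, by 0.38 with DLPC and by 0.17 with 6N-10CA.

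PLA2G2A, a secreted phospholipase A2 that cleaves phospholipids and is itself induced in inflammation (chromosome 1, 19975431 to 19980416), was read at 16.5, 14.5 and 16.3 CPM with DLPC, against 29.5, 32 and 29.6 CPM with ethanol. The 6N-10CA libraries held 29.6, 21.8 and 22.2 CPM, against 28.6, 24.9 and 24.8 CPM with DMSO. All DLPC libraries were below all others, and 6N-10CA and DMSO overlapped. The responses were -0.95 (SE 0.09) and -0.10 (SE 0.09) and the difference -0.85 (SE 0.12, adjusted p = 0.0007798). CHKA, the choline kinase that starts phosphatidylcholine synthesis from choline, was the other of 2 lower members among 32 tested in the phosphatidylcholine and phospholipase list (0 higher). It averaged 179 ± 11.6 CPM with DLPC, against 211 ± 12.9 CPM with ethanol, and 239 ± 18.5 CPM with 6N-10CA, against 225 ± 4.78 CPM with DMSO. Its difference was -0.32 (SE 0.05, adjusted p = 0.001384).

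TAGLN, a smooth muscle actin-binding protein and target of the factor SRF (chromosome 11, 117199321 to 117204782), was read at 16.8, 19.4 and 18 CPM with DLPC, against 31.0, 35.6 and 29.9 CPM with ethanol. It was read at 25.5, 30.8 and 27.3 CPM with 6N-10CA, against 31.3, 30.9 and 29.1 CPM with DMSO. The DLPC libraries stood apart from all others, and the difference was -0.70 (SE 0.10, adjusted p = 0.0006972). TAGLN overlaps PCSK7 on the opposite strand over 446 exonic bases, and the strandedness of the counts is not given in the sources used here. PCSK7 averaged 37.8 CPM over the 12 libraries, against 27.1 CPM for TAGLN. CYR61 and ACTA2 were the other lower members of the SRF and YAP target list (3 lower and 0 higher of 26 tested), at -0.53 and -0.22, ACTA2 with its call lost in 9 of 12 fits with a library left out. In the separate responses 6 members of that list fell and 1 rose with DLPC, while 0 fell and 2 rose with 6N-10CA.

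**Figure D2:**
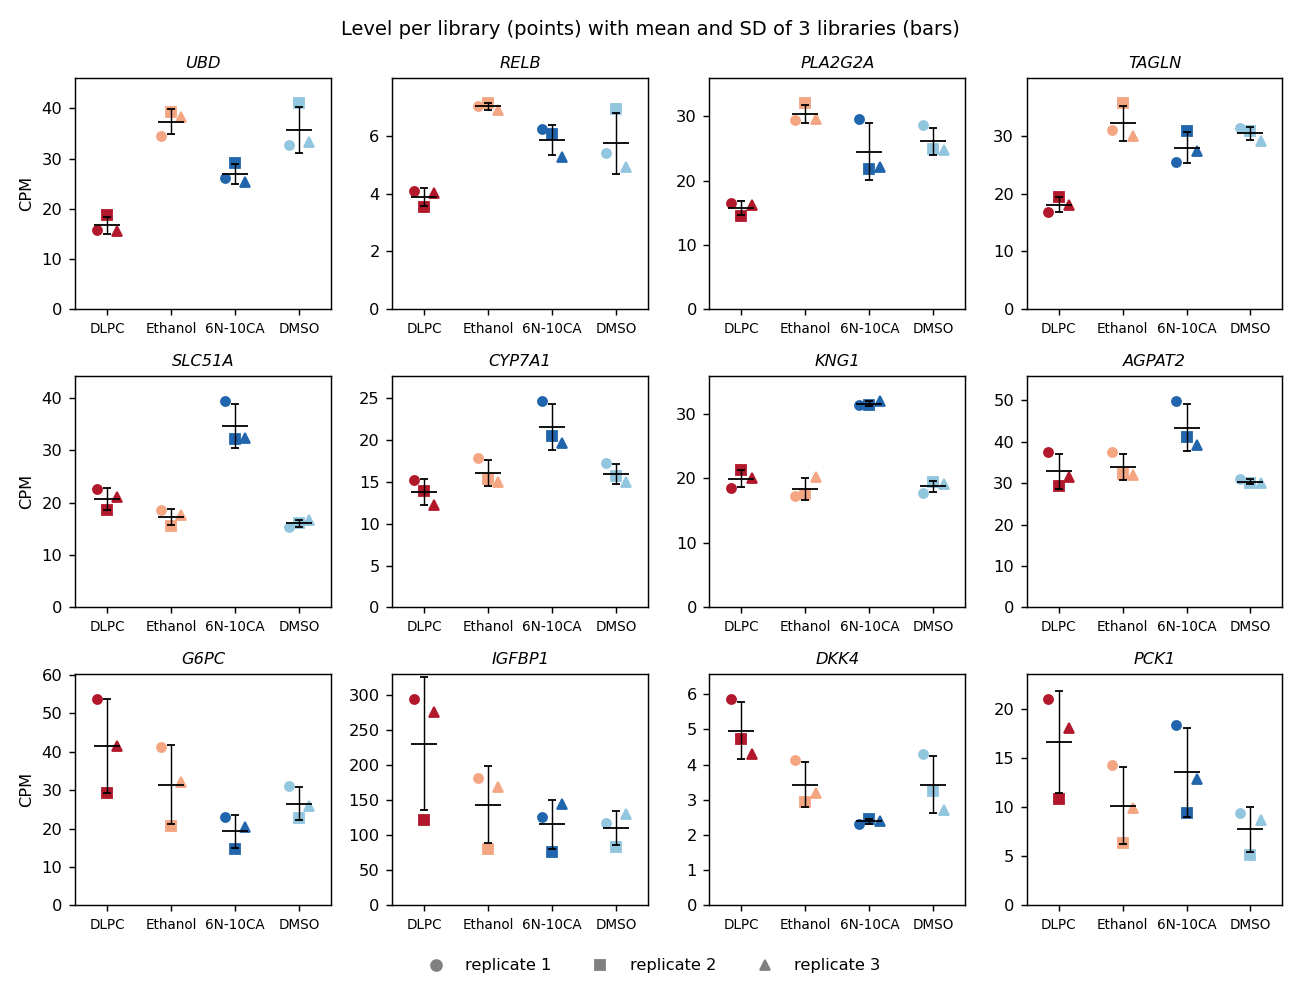
Level in CPM of 12 genes in each library (points, shaped by replicate number) with the mean and SD of the 3 libraries (bars), for DLPC, ethanol, 6N-10CA and DMSO. UBD, RELB, PLA2G2A and TAGLN are lowest in the 3 DLPC libraries, SLC51A, CYP7A1, KNG1 and AGPAT2 are highest in the 6N-10CA group mean, and G6PC, IGFBP1 and PCK1 are low in replicate 2 of every group.

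A second set of genes differed by a rise with 6N-10CA. Bile acid genes were among them: liver makes bile acids from cholesterol, starting with CYP7A1, and SLC51A with SLC51B carries bile acids out of the cell. SLC51A (chromosome 3, 196211487 to 196243178) was read at 22.6, 18.5 and 21.0 CPM with DLPC, against 18.6, 15.5 and 17.6 CPM with ethanol. With 6N-10CA the level was 39.4, 32 and 32.4 CPM, against 15.4, 16.2 and 16.7 CPM with DMSO. All 6N-10CA libraries were above all others, and the DLPC and ethanol libraries overlapped slightly. SLC51A rose 2.15-fold with 6N-10CA, a log2 response of 1.10 (SE 0.08), against a DLPC response of 0.27 (SE 0.08, adjusted p = 0.06366), and the difference was -0.84 (SE 0.12, adjusted p = 0.0006152). Its exons overlap PCYT1A on the opposite strand over 149 bases, and PCYT1A averaged 33.1 CPM over the 12 libraries, against 22.2 CPM for SLC51A.

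CYP7A1, the rate-limiting enzyme of the classic route of bile acid synthesis (chromosome 8, 58490178 to 58500236), was read at 15.3, 13.9 and 12.2 CPM with DLPC, against 17.9, 15.3 and 15 CPM with ethanol. Its level with 6N-10CA was 24.7, 20.5 and 19.6 CPM, against 17.3, 15.7 and 14.9 CPM with DMSO. The 6N-10CA libraries were again above all others, while DLPC and ethanol overlapped. The 6N-10CA response was 0.43 (SE 0.06), the DLPC response -0.22 (SE 0.07, adjusted p = 0.05758) and the difference -0.65 (SE 0.09, adjusted p = 0.0006972). Beyond SLC51A and CYP7A1 the list showed no called difference: of its 24 tested members, 0 were higher and 2 lower, although 6 rose and 0 fell in each response.

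KNG1, which encodes the kininogens of the contact pathway of coagulation (chromosome 3, 186717276 to 186744410), was read at 18.6, 21.2 and 19.98 CPM with DLPC, against 17.2, 17.6 and 20.2 CPM with ethanol. The 6N-10CA libraries held 31.4, 31.4 and 32 CPM, against 17.8, 19.4 and 19.1 CPM with DMSO. The 6N-10CA libraries lay far above the rest, and the other 3 groups overlapped. The responses were 0.12 (SE 0.07) with DLPC and 0.75 (SE 0.07) with 6N-10CA, a difference of -0.63 (SE 0.10, adjusted p = 0.001226). F12, another factor of the contact pathway, and F2, prothrombin, differed in the opposite direction, at 0.30 and 0.17, but these calls were lost in 9 and 8 of 12 fits with a library left out and in the fit of the 12 libraries alone. In the coagulation and complement list, 2 of 33 tested members were thus higher and 1 lower.

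AGPAT2, an acyltransferase of triglyceride and phospholipid synthesis (chromosome 9, 136673143 to 136687423), averaged 32.8 ± 4.31 CPM with DLPC, against 33.9 ± 3.07 CPM with ethanol, and 43.4 ± 5.65 CPM with 6N-10CA, against 30.3 ± 0.624 CPM with DMSO. It rose with 6N-10CA (0.51, SE 0.07) and not detectably with DLPC (-0.05, SE 0.07), a difference of -0.56 (SE 0.09, adjusted p = 0.002179). CREB3L3, a liver transcription factor of fasting and triglyceride metabolism, averaged 28.1 ± 3.26 CPM with DLPC, against 29.8 ± 2.53 CPM with ethanol. It averaged 33.6 ± 3.22 CPM with 6N-10CA, against 26.1 ± 2.16 CPM with DMSO, and the difference was -0.45 (SE 0.06, adjusted p = 0.0006972). PLIN2, the coat protein of lipid droplets, rose with both and more with 6N-10CA: it averaged 797 ± 60.7 CPM with DLPC, against 734 ± 54.0 CPM with ethanol, and 870.1 ± 57.8 CPM with 6N-10CA, against 661 ± 52.4 CPM with DMSO. P4HA1, a collagen prolyl hydroxylase and hypoxia-responsive gene, was of the same kind, with responses of 0.16 (SE 0.05) and 0.64 (SE 0.04) and a difference of -0.49 (SE 0.06, adjusted p = 0.0004532).

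Genes of iron handling and BMP-SMAD signalling also differed. BMP signals act in hepatocytes through SMAD factors on HAMP, the gene of the iron hormone hepcidin, and on the inhibitors ID1, ID2 and ID3. Of 21 tested members, 0 were higher and 4 lower in the difference, and these 4 were HAMP (-0.56), ID3 (-0.39), ID2 (-0.36) and ID1 (-0.23). HAMP (chromosome 19, 35280716 to 35285143) was read at 25.1, 31.3 and 27.2 CPM with DLPC, against 23.6, 31.1 and 25.8 CPM with ethanol, and at 36.8, 35.1 and 31.9 CPM with 6N-10CA, against 22.7, 23.9 and 20.9 CPM with DMSO. The 6N-10CA libraries were above all others and DLPC and ethanol overlapped. ID2 followed HAMP, with a 6N-10CA response of 0.38 (SE 0.04) and a DLPC response of 0.01 (SE 0.04). ID3 did not: it averaged 55.8 ± 2.40 CPM with DLPC, against 72.0 ± 5.11 CPM with ethanol, and 70.4 ± 9.77 CPM with 6N-10CA, against 68.9 ± 6.05 CPM with DMSO. Leaving out single libraries ended the call of HAMP in 5 of 12 cases, that of ID3 in 4 and that of ID1 in 10. Ethanol against DMSO was called for 2 of the 21, BMP4 and CP, neither of them among these 4.

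Some glucose genes had a higher DLPC than 6N-10CA response. Of 22 tested members of the glucose production and ChREBP target list, 4 were higher and 0 lower in the difference, with 7 higher and 1 lower under DLPC and 2 higher and 2 lower under 6N-10CA. G6PC, the glucose-6-phosphatase that releases free glucose from liver (chromosome 17, 42900797 to 42913369), was read at 53.7, 29.3 and 41.5 CPM with DLPC, against 41.4, 20.8 and 32.1 CPM with ethanol. It was read at 23.1, 14.6 and 20.3 CPM with 6N-10CA, against 31.0, 22.7 and 25.8 CPM with DMSO. The groups overlapped across replicate numbers, since replicate 2 was low in all 4, but within each number DLPC was above ethanol and 6N-10CA below DMSO. The responses were 0.41 (SE 0.08) and -0.46 (SE 0.09) and the difference 0.87 (SE 0.12, adjusted p = 0.0006972), which was lost without the replicate block (adjusted p = 0.6917).

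IGFBP1, a secreted insulin-like growth factor binding protein that insulin represses (chromosome 7, 45888357 to 45893668), was read at 294, 122 and 276 CPM with DLPC, against 182, 80.5 and 168 CPM with ethanol. With 6N-10CA the level was 126, 75.8 and 144 CPM, against 117, 82.8 and 130.4 CPM with DMSO. Within each number the DLPC library was the highest of the 4, and the difference was 0.63 (SE 0.14, adjusted p = 0.02865). That call was lost in 8 of 12 fits with a library left out. PKLR, the liver pyruvate kinase, averaged 117 ± 3.06 CPM with DLPC, against 99.0 ± 0.711 CPM with ethanol, and 87.7 ± 3.70 CPM with 6N-10CA, against 95.8 ± 2.52 CPM with DMSO. GPD1, the cytosolic glycerol-3-phosphate dehydrogenase, differed through a fall with 6N-10CA: it averaged 80.6 ± 6.92 CPM with DLPC, against 81.6 ± 7.65 CPM with ethanol, and 57.3 ± 3.74 CPM with 6N-10CA, against 77.8 ± 2.33 CPM with DMSO. The differences of PKLR and GPD1 were 0.37 (SE 0.07) and 0.43 (SE 0.07). LOX, a collagen-crosslinking oxidase and hypoxia-responsive gene, had the same form as IGFBP1, with responses of 0.61 (SE 0.05) to DLPC and 0.04 (SE 0.05) to 6N-10CA and a difference of 0.57 (SE 0.08, adjusted p = 0.0004532). LOX and P4HA1 stood on opposite sides, so that the hypoxia list had 1 higher and 1 lower member of 24.

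The responses had opposite signs, with both called, for 18 genes (0.122% of those tested). Opposite responses add up in the difference, so its call for each of the 18 nearly follows from how they were selected. The count fell to 4 to 16 with a library left out, was lowest without the second 6N-10CA or the second DMSO library, and was 0 without the replicate block. DLPC raised and 6N-10CA lowered 14 of them: ACSL5, ASPDH, ERBB3, FST, G6PC, IGSF1, PLXNA1, PROZ, SLC39A4, SLC6A12, TADA2B, TKFC, TTC39C and ZNRF3. Of the 14, TADA2B and ZNRF3 had a called difference between the vehicles, and PLXNA1 one of -0.45 that missed the threshold (adjusted p = 0.05353). PLXNA1 averaged 99.3 ± 7.17 CPM with DLPC, against 74.3 ± 8.65 CPM with ethanol, and 79.7 ± 9.49 CPM with 6N-10CA, against 101 ± 11.4 CPM with DMSO, and its difference of responses was 0.14 in replicate 3, against 1.01 and 1.15 in replicates 1 and 2. DLPC lowered and 6N-10CA raised ANG, ENAH, EPB41L1 and MT2A. EPB41L1, a membrane skeleton protein (chromosome 20, 36091504 to 36232799), was read at 41.1, 38 and 42.7 CPM with DLPC, against 47.6, 45.8 and 43.9 CPM with ethanol, and at 55.1, 53.3 and 52.5 CPM with 6N-10CA, against 45.7, 45.8 and 48.3 CPM with DMSO. Its DLPC libraries were below and its 6N-10CA libraries above all vehicle libraries, and the responses were -0.17 (SE 0.05) and 0.20 (SE 0.05). FST, the activin antagonist follistatin (chromosome 5, 53480409 to 53487134), was read at 55.9, 35.6 and 44.8 CPM with DLPC, against 46.8, 27.9 and 38.2 CPM with ethanol, and at 30.6, 19.8 and 25.9 CPM with 6N-10CA, against 34.7, 28.4 and 33.1 CPM with DMSO. As for G6PC, replicate 2 was the lowest of every group, and the signs held within each number. PROZ, a vitamin K-dependent plasma protein of coagulation, averaged 16.5 ± 1.17 CPM with DLPC, against 13.6 ± 1.41 CPM with ethanol, and 12.4 ± 1.11 CPM with 6N-10CA, against 15 ± 1.08 CPM with DMSO. ASPDH had responses of 0.32 (SE 0.07) and -0.43 (SE 0.07). ENAH, an actin regulator, had responses of -0.23 (SE 0.06) and 0.22 (SE 0.06), close in size and opposite in sign.

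Most of the largest positive differences came with ethanol values below DMSO values. The 12 with the largest values were TADA2B (1.43), RNF19B (1.32), BRD1 (1.31), MNX1 (1.15), CARM1 (1.10), DKK4 (1.03), SDK1 (1.01), SLC6A8 (0.99), ZNRF3 (0.99), C2orf72 (0.98), SLC6A12 (0.97) and PAPD7 (0.96). TADA2B (chromosome 4, 7041899 to 7057952), a subunit of the SAGA co-activator complex, was read at 19.1, 23.7 and 19.5 CPM with DLPC, against 9.93, 10.2 and 15.2 CPM with ethanol. Its level with 6N-10CA was 12.9, 13.3 and 16.2 CPM, against 23.0, 24.7 and 16.9 CPM with DMSO. The DLPC and DMSO levels overlapped, as did those of ethanol and 6N-10CA, and all DLPC libraries were above all 6N-10CA libraries. The responses were 0.82 (SE 0.16) and -0.61 (SE 0.15), ethanol minus DMSO was -0.88 (SE 0.16, adjusted p = 0.03753), and DLPC against 6N-10CA without the vehicles was 0.55 (SE 0.15, adjusted p = 0.03075). In 10 of these 12 genes ethanol was lower than DMSO by more than 0.3 (log2 scale). In the same number the third ethanol library was the highest of its group and the third DMSO library the lowest. Ethanol was that much lower in 26 of all 136 higher genes and in 706 of the 14797 tested. The order of the third libraries held in 19.9% of the 136 and in 9.29% of all tested genes. Low ethanol and high DMSO values enter the difference by which these 12 were ranked, so this is a description of them and no test; ethanol against DMSO was called for 3 of the 12. In replicate 3 the difference of responses of TADA2B was 0.42, against 1.77 and 2.09 in replicates 1 and 2; for CARM1 it was 0.08, against 1.38 and 1.87.

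A direct contrast of DLPC with 6N-10CA that leaves the vehicles out had a median of 0.48 over these 12 genes, which were ranked by the difference of responses (median 1.02). It called 8 of them, and 1154 (7.8%) of all genes tested. RNF19B, MNX1, CARM1 and SLC6A8 were the 4 that it did not call. ZNRF3, a ubiquitin ligase that removes Wnt receptors from the cell surface (chromosome 22, 28883592 to 29057487), kept a direct difference of 0.49 (SE 0.10, adjusted p = 0.00228); its level was 197, 199 and 206 CPM with DLPC, 115, 124 and 154 CPM with ethanol, 138, 123 and 169 CPM with 6N-10CA and 199, 185 and 168 CPM with DMSO. RXRA, the partner receptor of many nuclear receptors, shared the arrangement: it was read at 112, 113 and 109 CPM with DLPC, 70.7, 73.6 and 88.0 CPM with ethanol, 84.5, 77.3 and 92.6 CPM with 6N-10CA and 105, 96.5 and 88.1 CPM with DMSO. The exceptions among the 12 were DKK4, a secreted Wnt inhibitor whose vehicles were level (0.00), and SLC6A12 (-0.23). DKK4 (chromosome 8, 42374068 to 42377232) was read at 5.86, 4.74 and 4.31 CPM with DLPC, against 4.14, 2.95 and 3.20 CPM with ethanol, and at 2.31, 2.46 and 2.40 CPM with 6N-10CA, against 4.31, 3.25 and 2.71 CPM with DMSO. Each DLPC library of DKK4 was above all ethanol and 6N-10CA libraries. Over the whole set of 136 higher genes the vehicles had a median of -0.03, and 118 were called in the direct contrast. Ethanol against DMSO called 18 genes (0.122% of those tested). CARM1 shares 886 exonic bases with YIPF2 on the opposite strand, and its call was lost in 8 of 12 fits with a library left out.

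In most of the 12 largest negative differences ethanol values were above DMSO values, by smaller amounts. These genes were GPR153 (-1.05), RELB, PLA2G2A, SLC51A, UBD, TAGLN, CYP7A1, MT1E, KNG1, GATA6, KREMEN2 and AGPAT2 (-0.56). Ethanol minus DMSO had a median of 0.11 over them, against -0.58 over the 12 largest positive ones, and was called for 0. It was largest for RELB, at 0.29, and below 0 for MT1E (-0.07) and KNG1 (-0.03). The vehicles enter this ranking too, so this is again no test. The direct contrast called all 12, with a median of -0.63 beside -0.68 for the difference by which they were ranked. GPR153, an orphan receptor at a low level, averaged 1.81 ± 0.358 CPM with DLPC, against 3.01 ± 0.215 CPM with ethanol, and 3.44 ± 0.596 CPM with 6N-10CA, against 2.76 ± 0.0962 CPM with DMSO. Its call was lost in 7 of 12 fits with a library left out, as were those of GATA6 in 8 and KREMEN2 in 5. KREMEN2 (mean 8.47 CPM over the 12 libraries) shares 360 exonic bases with the higher PKMYT1 (60.1 CPM) on the opposite strand.

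**Figure D3:**
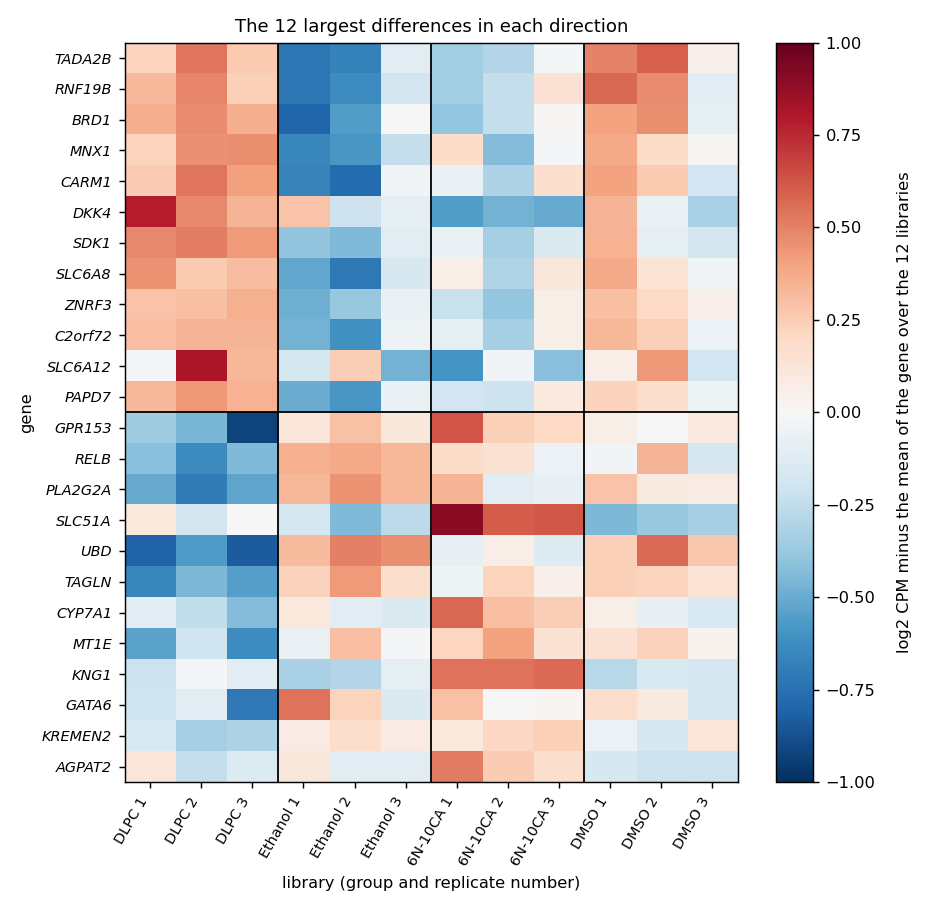
Log2 CPM of the 12 largest positive (upper block) and 12 largest negative (lower block) differences of responses in each of the 12 libraries, minus the mean of the gene over these libraries. In most of the upper block the third ethanol library is paler than the other ethanol libraries and the third DMSO library is lower than the other DMSO libraries; in the lower block UBD, RELB and TAGLN are low in the 3 DLPC libraries and SLC51A and KNG1 high in the 3 6N-10CA libraries.

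Among 25 tested LRH-1 targets, 2 were higher and 1 lower in the difference. CYP7A1 was the lower one, and CYP19A1 and APOM (0.28) were the higher ones. The call of APOM was lost in 11 of 12 fits with a library left out. Over these fits the number of higher LRH-1 targets ran from 0 to 2. CYP19A1, the aromatase that makes estrogens (chromosome 15, 51208057 to 51338610), was read at 77.0, 61.9 and 73.4 CPM with DLPC, against 57.5, 47.7 and 47.2 CPM with ethanol, and at 55.0, 52.4 and 52.7 CPM with 6N-10CA, against 50.6, 49.0 and 46.8 CPM with DMSO. All DLPC libraries were above all others. Its responses were 0.48 (SE 0.06) and 0.13 (SE 0.06) and its difference 0.35 (SE 0.08, adjusted p = 0.03449), a call lost in 9 of 12 fits with a library left out. The 250 bases before the RefSeq start of CYP19A1 (GRCh38.p14, chr15:51318498-51318747, minus strand) hold the LRH-1 motif CAAGGNCA and are shown for that reason. The motif, in capitals, is on the strand opposite to the gene. No promoter of CYP7A1 is shown, and whether it holds the motif is not given here. In the LRH-1 list 4 of 15 matched promoters held the motif (26.7%). The share was 3.33% for all tested genes and 4.61% for all promoters searched. Among called genes it was in 1 of 102 matched promoters with a higher DLPC response and in 5 of 60 with a lower one. The match in CYP19A1 thus does not link the motif to a higher DLPC response.
CYP19A1: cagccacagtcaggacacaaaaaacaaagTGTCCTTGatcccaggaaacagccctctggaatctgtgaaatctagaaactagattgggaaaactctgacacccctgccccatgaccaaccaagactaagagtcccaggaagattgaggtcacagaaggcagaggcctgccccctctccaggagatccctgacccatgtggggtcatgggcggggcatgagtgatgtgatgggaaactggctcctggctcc

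Among lipoprotein genes most called differences were upward. Of 21 tested apolipoprotein and lipoprotein assembly genes, 4 were higher (ANGPTL8 at 0.35, APOA2 at 0.29, APOM at 0.28 and APOA5 at 0.25) and 1 lower (LCAT, the cholesterol-esterifying enzyme of plasma, at -0.30). APOA2, an abundant protein of high-density lipoprotein, averaged 4362 ± 308 CPM with DLPC, against 3826 ± 333 CPM with ethanol, and 3476 ± 322 CPM with 6N-10CA, against 3705 ± 190 CPM with DMSO. ANGPTL8, an inhibitor of lipoprotein lipase, rose in both responses, by 0.66 with DLPC and by 0.31 with 6N-10CA. The calls of APOM, APOA5 and ANGPTL8 were lost in 11, 5 and 8 of 12 fits with a library left out, and ANGPTL8 and APOM overlap other genes on the opposite strand. ACSL3, an acyl-CoA synthetase of lipid droplets, was read at 446, 392 and 422 CPM with DLPC, against 368, 307 and 322 CPM with ethanol, and averaged 332 ± 10.2 CPM with 6N-10CA, against 328 ± 11.7 CPM with DMSO. Its DLPC libraries were above all others and its difference was 0.32 (SE 0.05, adjusted p = 0.002718). In the fatty acid and triglyceride list, 3 of 23 members were higher (ACSL3, LPIN2 at 0.36 and SREBF1 at 0.23) and 2 lower (AGPAT2 and FADS2 at -0.21); FADS2 was lost in 10 of 12 fits with a library left out. NPC1, which exports cholesterol from lysosomes, differed by 0.32 (SE 0.06, adjusted p = 0.00648).

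The lipid and 6N-10CA also shared a part of their responses. They called 187 genes in the same direction (1.26% of those tested), 90 higher and 97 lower, which is 18.8% of the DLPC calls and 33.3% of the 6N-10CA calls. The 95% interval of the difference lay within 0.5 log2 units of 0 for 178 of them, as it did for 67.8% of all tested genes. The difference itself was called for 10 of the 187: the DLPC response was the larger for UBD, ANGPTL8, GPX2, HP, SCGN and IGDCC3, and the 6N-10CA response for CYB5A, P4HA1, PLIN2 and TNNI2. For the rest no difference was called, which does not show that the responses were equal. No control library enters both responses.

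Cholesterol synthesis was the list with the most shared calls. Sterol synthesis runs from acetyl-CoA through HMGCS1 to squalene and on to cholesterol, under control of SREBP2. Of 25 tested members, 19 rose with DLPC and 9 with 6N-10CA, none fell, and the 9 were called in both. No member was called in the difference by edgeR (8 higher and 0 lower at an unadjusted p under 0.05; 3 higher by DESeq2 and 0 by limma-voom), and the interval of all 25 lay within 0.5 of 0; the median was 0.22 for the DLPC response, 0.11 for the 6N-10CA response and 0.11 for the difference (log2 scale). HMGCS1, which makes HMG-CoA (chromosome 5, 43289395 to 43313512), was read at 405, 398 and 431 CPM with DLPC, against 335, 317 and 315 CPM with ethanol, and at 336, 373 and 376 CPM with 6N-10CA, against 286, 324 and 312 CPM with DMSO. Both treated groups were above their own vehicle library in every replicate number, and the difference was 0.11 (95% interval -0.03 to 0.26). LSS, the lanosterol synthase, averaged 606 ± 38.4 CPM with DLPC, against 489 ± 39.1 CPM with ethanol, and 557 ± 18.2 CPM with 6N-10CA, against 477 ± 24.3 CPM with DMSO. In fatty acid and triglyceride synthesis, 15 of 23 members rose with DLPC, 8 rose and 1 fell with 6N-10CA, and 5 rose with both. ACSS2, which makes acetyl-CoA from acetate, had responses of 0.51 (SE 0.05) and 0.26 (SE 0.05) and a difference of 0.24 that missed the threshold (adjusted p = 0.0659).

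PCK1, the first committed enzyme of gluconeogenesis (chromosome 20, 57561080 to 57568112), was the shared riser with the largest value of its smaller response. Its level was 21.0, 10.9 and 18 CPM with DLPC, against 14.2, 6.33 and 9.88 CPM with ethanol, and 18.4, 9.40 and 12.9 CPM with 6N-10CA, against 9.38, 5.15 and 8.67 CPM with DMSO. Replicate 2 was again the lowest of each group, and the treated library was above its vehicle in all 3 numbers. The responses were 0.72 (SE 0.09) and 0.81 (SE 0.10) and the difference -0.09 (95% interval -0.37 to 0.19). PCK1 thus rose in both responses, whereas G6PC, an enzyme of the same pathway, rose in one and fell in the other. Without the replicate block neither response of PCK1 was called (adjusted p = 0.3607 and 0.4341). NR0B2, the receptor SHP that LRH-1 and FXR induce (chromosome 1, 26911489 to 26913966), was read at 99.5, 84.9 and 117 CPM with DLPC, against 73.7, 65.6 and 94.8 CPM with ethanol, and at 110.2, 86.7 and 116 CPM with 6N-10CA, against 75.1, 74.8 and 96.8 CPM with DMSO. It rose by 0.37 and 0.34 (SE 0.06 each), with a difference of 0.03 (95% interval -0.15 to 0.21).

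Hypoxia-responsive genes rose in both responses, 12 of 24 with DLPC (1 fell) and 10 with 6N-10CA, 6 of them with both. NDRG1 was of these, at 0.38 (SE 0.05) and 0.33 (SE 0.05). Genes of the unfolded protein response fell mainly with 6N-10CA: of 24 tested, 11 fell with it and 3 with DLPC. The 3 were shared: SDF2L1, XBP1 and PDIA4. The list median was -0.04 for the DLPC response, -0.14 for the 6N-10CA response and 0.10 for the difference (log2 scale). SDF2L1, a chaperone partner of the endoplasmic reticulum, averaged 60.3 ± 7.46 CPM with DLPC, against 70.7 ± 5.83 CPM with ethanol, and 64.9 ± 5.30 CPM with 6N-10CA, against 75.1 ± 4.30 CPM with DMSO. Its difference was -0.02 (95% interval -0.16 to 0.12). In the hedgehog and Wnt list, 2 of 17 members rose and 5 fell with DLPC and 1 rose and 5 fell with 6N-10CA; 3 fell in both (NOTUM, NKD1 and DKK1) and ZNRF3 moved in opposite directions. DKK1, a secreted Wnt inhibitor, averaged 91.3 ± 5.40 CPM with DLPC, against 128 ± 8.14 CPM with ethanol, and 102 ± 14.3 CPM with 6N-10CA, against 118 ± 11.5 CPM with DMSO.

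AKR1B10, an aldo-keto reductase that reduces retinal and is induced by NRF2 (chromosome 7, 134527592 to 134541408), was among the shared falls. It was read at 24.9, 31.1 and 24.9 CPM with DLPC, against 38.5, 42.4 and 36.6 CPM with ethanol, and at 24.1, 32.6 and 26.3 CPM with 6N-10CA, against 34.7, 44.4 and 33.1 CPM with DMSO. Each treated group lay below its vehicle with no overlap, and the difference was -0.11 (95% interval -0.29 to 0.06). ARSI, a sulfatase, was read at 47.2, 47.2 and 42.8 CPM with DLPC, against 58.2, 61.3 and 56.5 CPM with ethanol, and at 42.1, 40.8 and 42.1 CPM with 6N-10CA, against 61.9, 59.2 and 52.5 CPM with DMSO. It was called in both responses with the replicate block and without it. The other shared genes with the largest smaller response were PLEK2, C6orf223, CRYAA, ARRDC3, PNCK, HGFAC and ADCY7 among the risers and MBOAT4, AGR2, SGK1, C8B and HSPA8, with UBD, among the falls. Calls of PLEK2, C6orf223, CRYAA, ADCY7, MBOAT4, AGR2, SGK1, C8B and HSPA8 were lost in at least 1 response with a single library left out, and ADCY7 and MBOAT4 overlap more highly expressed genes on the opposite strand (BRD7 and LEPROTL1).

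**Figure D4:**
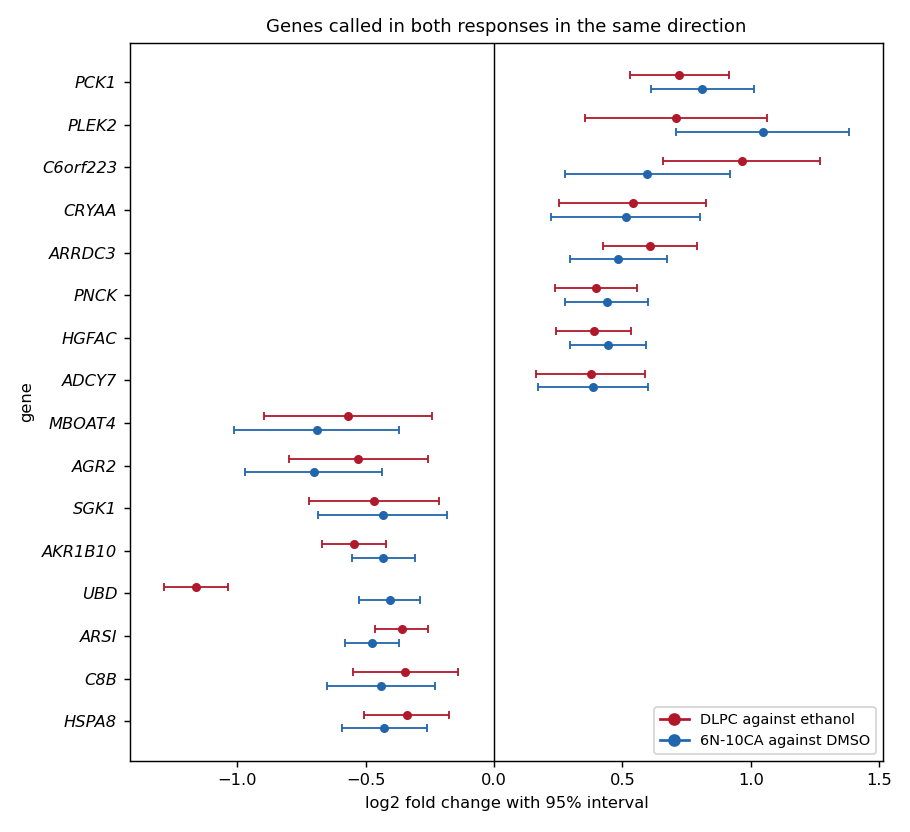
Log2 fold change with its 95% interval for the 8 genes in each direction that were called in both responses with the largest value of the smaller response, for DLPC against ethanol (upper mark, red) and 6N-10CA against DMSO (lower mark, blue). The intervals of a gene overlap for PCK1 and AKR1B10 and are separate for UBD.

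The remaining lists had few or no members called in the difference of responses. Xenobiotic metabolism, the amino acid response and ATF4 targets, p53 targets, mitochondrial mRNAs and hepatocyte identity had 0 members called by edgeR in either direction, of 24, 31, 19, 13 and 14 tested. Over these 5 lists, 6 members were higher and 22 lower at an unadjusted p under 0.05, DESeq2 called 1 higher and 1 lower, and limma-voom called 1 lower. The largest differences within the lists of chromatin co-regulators (3 higher of 39) and of hedgehog and Wnt genes (2 higher, 1 lower of 17) were those of TADA2B, BRD1, CARM1 and ZNRF3, all 4 among the 12 largest positive differences. Single members were called in the lists of LXR targets (SREBF1 at 0.23), the unfolded protein response (SEC24D at 0.31), the cell cycle (MYBL2 at -0.17) and lysosomes (NPC1). With a library left out, the call of SREBF1 was lost in 11 of 12 fits, that of SEC24D in 8 and that of MYBL2 in 7, MYBL2 also in the fit of the 12 libraries alone. Among 24 genes of fatty acid oxidation and PPAR targets, PLIN2 and CREB3L3 were the lower members, and 2 lower members were also called among NRF2 targets, HMOX1 (-0.26) and OSGIN1 (-0.35), the second of which was lost in 8 of 12 such fits and with the 12 libraries alone.

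**Figure D5:**
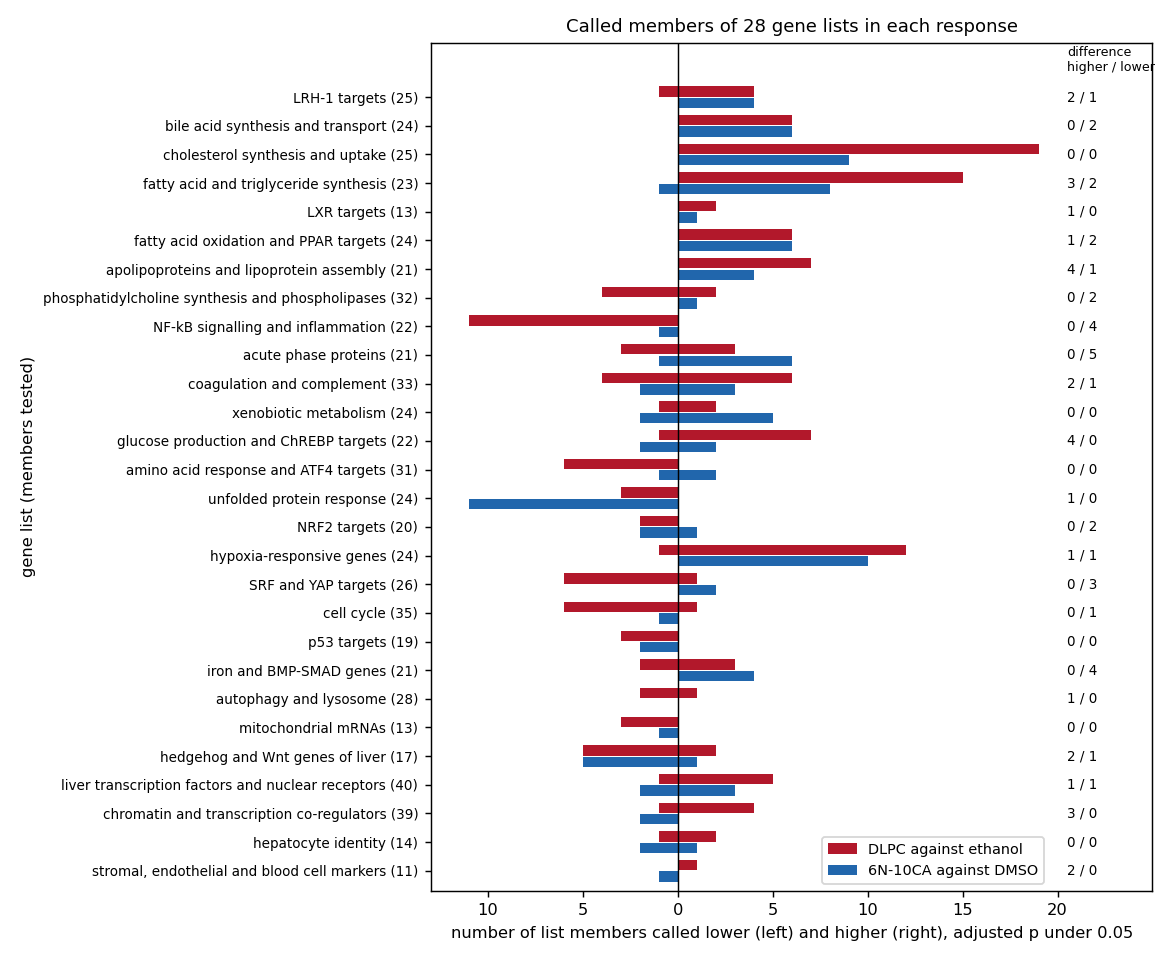
Number of members of each of 28 gene lists called lower (left of 0) and higher (right of 0) with DLPC against ethanol (red, upper bar) and 6N-10CA against DMSO (blue, lower bar), with the members tested in brackets and, at the right, the members called higher and lower in the difference of responses. The NF-kB list has 11 members lower with DLPC and 1 with 6N-10CA, and the cholesterol list 19 and 9 members higher with none called in the difference.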

How the data were processed

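RNA was measured in HepG2 cells, with 3 libraries in each of 6 groups. What the authors deposited is 1 table of raw counts, whole numbers with no scaling, for 35238 rows named by gene symbol. Per the submitters' processing notes, GRCh38 was the build and DESeq2 one of the tools; aligner, counter and annotation: not given in the sources used here. A count was present for 24982 rows, and 28 symbols had been turned into dates (22 of them tested, none named). Per the labels' protocols, amplified cDNA was made into libraries read from a single end. The labels do not say that replicates are separate cultures, so p-values cover the spread between these libraries alone, possibly a technical one, and amplified reads are not independent molecules. Replicates differed by more than sampling noise (chi-square of 4.484 to 13.67 per gene), and none was counted as a copy.

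Genes were kept by edgeR's filterByExpr (minimum count 10, total 15), which left 14797 genes with 99.96% of the counts. All 18 libraries entered a single quasi-likelihood fit (edgeR 4.0.16, R 4.3.3) with TMM scaling, a mean per group and the replicate number as a block. Every contrast was adjusted over all tested genes at a threshold of 0.05, two-sided. The titles number the replicates and do not say what the number stands for, so the pairing is taken from the values. Over the 18 same-numbered pairs of the 4 groups, the correlation of deviations from the group means was 0.151 to 0.442 (median 0.33). Over the 45 such pairs of all 6 groups in the fit it was -0.009 to 0.586 (median 0.31). The variation between replicate libraries, as the square root of edgeR's common dispersion, was 4.42% with the block and 6.96% without. For the 10686 genes above 5 CPM, the difference had a 95% interval that reached a median of 0.169 to either side, and that of a response 0.12. CPM values are TMM-scaled, and SDs are between the libraries of a group, replicate effects included.

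The members, the 28 gene lists (618 of 683 genes tested) and the tests were chosen with earlier results of these data known. Named genes had at least 1 CPM over the 12 libraries. They were the 12 largest called differences in each direction with the same sign in all 3 numbers, the 8 shared genes in each direction with the largest smaller response, the 8 largest opposite ones, up to 4 called members of each list by p, called LRH-1 targets and NR5A2. Genes named beside these belong to the lists, the shared or the opposite set and were picked after their values were seen. Alternatives were RLE scaling, no filter or a stricter one, no block, DESeq2 1.42.0, limma-voom (limma 3.58.1), the 12 libraries alone, each library left out and other vehicles. Positions are from GENCODE release 29 on GRCh38 (94% of tested genes matched by symbol). Promoters are from RefSeq on GRCh38.p14, matched for 62 of the 86 named genes.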

Additional observations from a re-analysis of the deposited data

How the results depend on the processing

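The replicate block mattered most. Without it 10 differences of responses were called (9 higher, 1 lower) in place of 216. There were 154 genes for DLPC against ethanol, 39 for 6N-10CA against DMSO, 8 shared and 0 opposite (18 with the block). Of the distinct genes of the lists, 3 were called in the difference in place of 57. Of 70 named differences 5 were still called, TADA2B, ZNRF3, C2orf72, PLXNA1 and RXRA, and none changed sign. With no filter on low counts there were 443 differences (275 higher, 168 lower, 208 of them among the 216), of which 96 were list genes. That fit called 856 genes for 6N-10CA against DMSO and 54 opposite ones. With the vehicles left out, DLPC against 6N-10CA directly called 1154 genes (747 higher, 407 lower), among them 193 of the 216 and 163 list genes. With DMSO in place of ethanol, DLPC called 1665 genes. Leaving out 1 library at a time gave 133 to 180 differences (83 to 120 higher, 47 to 68 lower), with 36 to 50 list genes among them. These fits gave 422 to 1026 genes for DLPC, 218 to 577 for 6N-10CA, 90 to 144 shared and 4 to 16 opposite. The lowest counts were 133 without the first 6N-10CA library, 135 without the second and 138 and 141 without the first and second DLPC libraries; the second 6N-10CA and second DMSO libraries brought the opposite genes down to 4. Of the named differences 41 were called in all 12 such fits and 29 were lost in at least 1. RLE scaling (216), DESeq2 (309), limma-voom (218), the 12 libraries alone (220) and a stricter filter (225) stayed within 1.5 times the count and reversed no named difference. Some of the 70 calls were lost, 7 of them with the 12 libraries alone, 2 by DESeq2 (CARM1 and IGFBP1) and 1 by limma-voom. Among the shared genes, the 6N-10CA response of CRYAA was lost in all 3 of these settings, and that of SGK1 by limma-voom. For the typical gene above 5 CPM the unadjusted 95% interval reached 0.169 to either side on the log2 scale, and a call after adjustment needed a larger difference than that. Doses, vehicles and lengths of treatment limit what the contrast compares. Why single settings moved the counts was not tested.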

Other observations

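Metallothioneins, small cysteine-rich proteins that bind zinc and copper, were looked at as a family after the value of MT1E had been seen. Of 9 tested genes, 4 were lower in the difference of responses and 0 higher: MT1E at -0.64, MT1X at -0.52, MT2A at -0.38 and MT1F at -0.35 (log2 scale). The same 4 fell with DLPC, and MT2A was the 1 member that rose with 6N-10CA. MT1E (chromosome 16, 56625475 to 56627112) was read at 54.6, 69.0 and 51.2 CPM with DLPC, against 75.3, 97.6 and 78.6 CPM with ethanol. It was read at 92, 105 and 87.5 CPM with 6N-10CA, against 87.5, 93.2 and 81.2 CPM with DMSO. The DLPC and ethanol libraries did not overlap, while those of 6N-10CA and DMSO did. MT1X had responses of -0.47 (SE 0.06) and 0.05 (SE 0.06). MT1G, another abundant member, had a difference of -0.21 that missed the threshold (adjusted p = 0.1737). These genes are close copies, and reads shared between them could spread a change of 1 member over others.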
